A study of Homo sapiens with 4 samples.

Results

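The cancer-testis antigen families were described in U2-OS and HOS cells, both established human osteosarcoma lines. Members were all genes whose symbol in the array annotation starts with MAGEA, MAGEB, MAGEC, PAGE, GAGE, XAGE, SSX, CTAG, BAGE or SPANX, or is PRAME, on probe sets with 1 symbol. This gave 47 of the 18417 genes measured, in 10 of the 11 families, since every GAGE probe set carried several symbols. Gene expression had been measured on 4 arrays, 1 each for U2-OS with 600 μg/mL OGE, U2-OS without OGE, HOS with 600 μg/mL OGE and HOS without OGE, all after 24 h. The labels do not spell out OGE. The values are RMA levels on a log2 scale, so a difference of 1 is a 2-fold ratio.

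Cancer-testis antigens are proteins made in germ cells of the testis and, in some tumours, outside it. Most of their genes lie on the X chromosome in clusters of near-identical copies. In somatic cells their CpG-containing promoters are usually methylated and silent, and loss of that methylation is a known route to their expression in tumours. MAGE proteins bind RING-type ubiquitin ligases, and peptides of several families are recognised by T cells.

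The prefix rule also took 5 genes by spelling only. These were SSX2IP, which encodes a centrosome-associated protein that binds SSX proteins, and 4 CTAGE genes, which form a family apart from CTAG. In the RefSeq table of GRCh38.p14, 39 of the 47 members were on the X chromosome, 39 were protein-coding, 7 were pseudogenes and 1, SPANXA2-OT1, was a long noncoding RNA. PRAME, BAGE2, BAGE5 and the 5 genes taken by spelling were the 8 members on other chromosomes.

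Array medians over all probe sets lay between 3.58 and 3.62 (log2). Precision is limited by having 1 array per group, and whether the cultures were grown separately is not given. Of 8 measured osteoblast lineage markers, 6 were at or above an array median on at least 1 array, among them RUNX2 and SP7, transcription factors of bone-forming cells, while the bone matrix genes SPP1 and IBSP were below it on all 4 arrays. Of 8 measured germ cell markers, 1, the protamine gene PRM2, was at or above an array median, and the germ cell genes DDX4 and DAZL lay between 1.24 and 1.85. The fibrillar collagen gene COL1A2 of the osteoblast list was lower in U2-OS, with 4.38 and 4.46 with and without OGE, against 7.53 and 8.78 in HOS, at an adjusted p of 0.0355 in limma. At or above an array median were also 4 of 5 epithelial markers, 1 of 4 immune markers, CD68, and 0 of 4 endothelial markers. KRT8 of the epithelial list was lower in U2-OS by size in both states. Over all genes, 1.91% were lower this way and 1.04% by limma. With OGE, CD68 was higher by size, by 1.35 in U2-OS and 1.05 in HOS, beside 1.84% and 1.05% of all genes. COL1A1 and SPARC were lower with OGE by size in U2-OS, by changes of -1.75 and -1.4, and COL1A2 in HOS by -1.25. Lower this way were 4.92% of all genes in U2-OS and 1.34% in HOS. The part of these genes in the results was not tested.

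Between the lines, 8 members were higher in U2-OS than in HOS by size in both OGE states, and none was lower. A member was called by size when its log2 difference was at least 1 and the higher array was at or above its own median. The 8 were MAGEB2, MAGEA4, PAGE2B, XAGE5, BAGE5, MAGEA1, BAGE2 and MAGEA8, which is 17% of the members, against 1.8% of all genes called higher and 1.91% called lower. The limma test, which takes the OGE states as repeats of the comparison of the lines, called 7 of them at an adjusted p under 0.05, all but XAGE5, against 0.885% of all genes called higher and 1.04% called lower. It called no member lower, and at an unadjusted p under 0.05 it had 12 members higher and 1 lower in U2-OS, beside 10.3% and 10.4% of all genes. Within 1 state, 9 members were higher by size with OGE, the 8 and MAGEA11, and none was lower, against 3.05% and 3.89% of all genes. Without OGE, 10 were higher, the 8 with MAGEC1 and PRAME, and none was lower, against 5.2% and 3.56% of all genes. In bulk RNA, fewer cells with a transcript and less of it per cell cannot be told apart. The median difference over all 47 members was 0.22 with OGE and 0.07 without it, beside -0.01 and -0.03 over all genes.

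**Figure D1:**
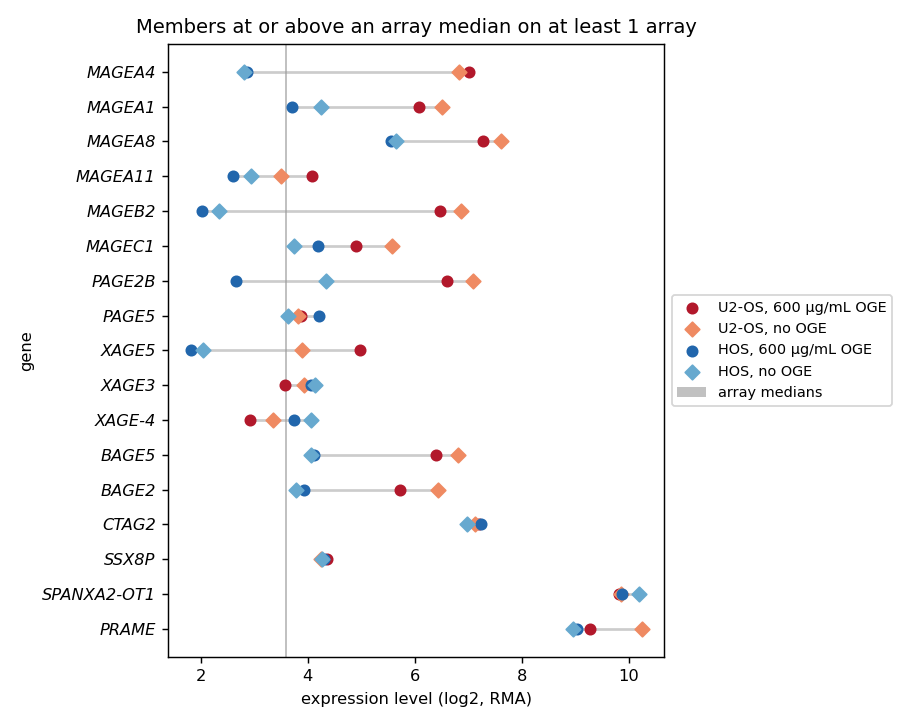
Expression levels (log2, RMA) of the 17 members at or above an array median on at least 1 array. Each point is 1 array, the grey line joins the 4 arrays of a gene, and the vertical band marks the array medians. For MAGEB2, MAGEA4 and XAGE5 the HOS points lie left of the band and the U2-OS points right of it, while the points of CTAG2, SSX8P and SPANXA2-OT1 nearly coincide.

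MAGEB2, a MAGE gene of the cluster on the short arm of the X chromosome, had levels of 6.47 with OGE and 6.86 without it in U2-OS, against 2.03 with OGE and 2.34 without it in HOS. Both U2-OS arrays were above the array median and both HOS arrays below it. The mean difference was 4.48 with a standard error of 0.17, at an adjusted p of 0.0117 in limma. The deposited values carry no detection call, so whether HOS levels this low lie above background was not tested, and no ratio is given against them. The next protein-coding gene beside MAGEB2 in the RefSeq table is MAGEB3, which was below the median on all 4 arrays, at 1.46 and 1.77 in U2-OS with and without OGE and at 1.86 and 2.09 in HOS. The other members of the MAGEB family, MAGEB5, MAGEB6, MAGEB10, MAGEB16, MAGEB17 and MAGEB18, were also below the median everywhere. Over the 7 MAGEB genes other than MAGEB2, levels ran from 1.45 to 2.76. Of the 8 measured MAGEB genes, MAGEB2 alone was called by size or by limma.

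Promoter windows of these neighbours are shown because their levels part. Each window runs from 250 bases before to 50 bases after the annotated start, from RefSeq on GRCh38.p14, printed 5′ to 3′ with CG pairs in capitals. The MAGEB2 window, chrX:30215313-30215612 on the plus strand, holds 21 CG pairs, and the MAGEB3 window, chrX:30230407-30230706 on the plus strand, holds 3. MAGEB3 was picked for display after its values were seen.
MAGEB2: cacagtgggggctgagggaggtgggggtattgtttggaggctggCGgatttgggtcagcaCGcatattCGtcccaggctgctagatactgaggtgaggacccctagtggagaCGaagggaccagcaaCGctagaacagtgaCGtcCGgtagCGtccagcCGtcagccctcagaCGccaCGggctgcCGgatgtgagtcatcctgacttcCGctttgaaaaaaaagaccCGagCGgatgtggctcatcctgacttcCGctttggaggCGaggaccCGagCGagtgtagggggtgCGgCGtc
MAGEB3: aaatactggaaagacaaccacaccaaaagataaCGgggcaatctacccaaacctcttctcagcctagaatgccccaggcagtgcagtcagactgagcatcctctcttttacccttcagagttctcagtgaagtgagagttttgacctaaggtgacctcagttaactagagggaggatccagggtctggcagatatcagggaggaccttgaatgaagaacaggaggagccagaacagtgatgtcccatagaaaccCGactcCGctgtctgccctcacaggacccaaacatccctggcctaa

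MAGEA4, a MAGE gene of the cluster at the end of the long arm and a target of T-cell therapies, had levels of 7.01 with OGE and 6.83 without it in U2-OS, against 2.86 and 2.82 in HOS. As with MAGEB2, only the U2-OS arrays were above the median. The mean difference was 4.08 with a standard error of 0.17, at an adjusted p of 0.0158 in limma. RefSeq gives MAGEA4 5 promoter windows. The most CG pairs, 15, are held by each of a pair of them, of which the one with the lower coordinates, chrX:151916675-151916974 on the plus strand, is printed for comparison with MAGEB2.
MAGEA4: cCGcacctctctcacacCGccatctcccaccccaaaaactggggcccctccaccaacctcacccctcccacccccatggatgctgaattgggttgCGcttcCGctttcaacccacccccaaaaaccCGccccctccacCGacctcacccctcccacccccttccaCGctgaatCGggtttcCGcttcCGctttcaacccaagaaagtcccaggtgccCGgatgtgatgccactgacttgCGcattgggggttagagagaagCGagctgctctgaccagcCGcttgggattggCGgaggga

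Of the other measured MAGEA genes, MAGEA1 and MAGEA8 were higher in U2-OS but were also above the median in HOS. MAGEA1, the founding member of the family, had levels of 6.08 with OGE and 6.51 without it in U2-OS, against 3.71 and 4.25 in HOS. In HOS with OGE, MAGEA1 was only just above the array median of 3.62. The mean difference of MAGEA1 was 2.32 with a standard error of 0.17, at an adjusted p of 0.0303 in limma. MAGEA8 had levels of 7.27 and 7.61 in U2-OS with and without OGE, against 5.56 and 5.65 in HOS, a mean difference of 1.84 at an adjusted p of 0.0405 in limma. For neither gene did the arrays of the lines overlap. The share of all genes without such overlap was not counted, so this adds nothing to the calls. MAGEA11, known as a coregulator of the androgen receptor, was above the median on the U2-OS array with OGE alone, at 4.09, with 3.51 in U2-OS without OGE and 2.61 and 2.95 in HOS with and without it. The difference of the lines was 1.48 with OGE and 0.56 without it, and limma gave an adjusted p of 0.139. MAGEA10 stayed below the median on all 4 arrays, between 1.93 and 2.68.

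In the MAGEC family, MAGEC1 had levels of 4.91 with OGE and 5.58 without it in U2-OS, against 4.19 and 3.75 in HOS. The U2-OS arrays were the higher ones in each state, by 0.72 with OGE and 1.83 without it, and limma gave an adjusted p of 0.119. MAGEC3 and MAGEC2, the protein-coding genes on either side of MAGEC1 in the RefSeq table, were below the median on every array, between 1.52 and 2.15.

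PAGE2B, of a family related in sequence to GAGE, had levels of 6.6 with OGE and 7.09 without it in U2-OS, against 2.66 with OGE and 4.34 without it in HOS. The HOS array with OGE was the only 1 of the 4 below the median. The mean difference between the lines was 3.34 with a standard error of 0.33, at an adjusted p of 0.0405 in limma. Over the limma alternatives its adjusted p ran from 0.000764 to 0.0877, the last without the OGE term, where the gene was not called. PAGE2, its neighbour in the RefSeq table, was below the median on all 4 arrays but differed the same way, with 3.39 and 3.49 in U2-OS with and without OGE, against 2.17 and 2.09 in HOS. PAGE2 differed by 1.31 with a standard error of 0.17 and missed the limma threshold with an adjusted p of 0.0502. Limma did call PAGE2 higher after quantile normalization, cyclic loess, averaging of probe sets, or with trend and robust moderation of the variances, but not without the OGE term. PAGE2 was named after its values were seen. Of the other PAGE genes, PAGE5 was above the median on every array, between 3.64 and 4.21, and PAGE1, PAGE3 and PAGE4 were below it.

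The promoter windows of PAGE2B, chrX:55074780-55075079, and PAGE2, chrX:55088768-55089067, both on the plus strand of GRCh38.p14, are printed because these genes are near-identical copies. They were identical at 260 of 279 aligned bases, 93.2%, and hold 12 and 13 CG pairs. Whether the probe sets tell the copies apart was not tested.
PAGE2B: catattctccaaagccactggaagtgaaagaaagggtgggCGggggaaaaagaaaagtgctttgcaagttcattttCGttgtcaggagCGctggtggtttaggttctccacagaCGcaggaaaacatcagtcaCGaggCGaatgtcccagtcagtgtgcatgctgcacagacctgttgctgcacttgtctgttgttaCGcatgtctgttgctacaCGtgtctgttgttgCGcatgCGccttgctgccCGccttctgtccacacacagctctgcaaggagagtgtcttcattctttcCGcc
PAGE2: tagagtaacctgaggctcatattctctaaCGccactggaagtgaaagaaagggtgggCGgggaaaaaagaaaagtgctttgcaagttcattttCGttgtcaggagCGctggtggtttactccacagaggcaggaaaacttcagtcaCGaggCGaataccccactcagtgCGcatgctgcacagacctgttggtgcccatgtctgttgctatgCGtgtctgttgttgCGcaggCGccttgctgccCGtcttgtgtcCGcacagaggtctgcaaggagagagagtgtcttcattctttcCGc

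In the XAGE family, also related to GAGE, XAGE5 had levels of 4.97 with OGE and 3.89 without it in U2-OS, against 1.82 and 2.05 in HOS. Only the U2-OS arrays were above the median. The difference was 3.15 with OGE and 1.84 without it, past the size threshold in each state, while limma gave an adjusted p of 0.054 for the mean difference of 2.50 with a standard error of 0.35. The protein-coding genes on either side of XAGE5 in the RefSeq table are XAGE3 and SPANXN5, and neither was called. XAGE3 had 3.57 and 3.94 in U2-OS with and without OGE, against 4.06 and 4.14 in HOS, and SPANXN5 was between 1.39 and 1.76 on all arrays. XAGE-4, annotated as a transcribed pseudogene, was the member with the lowest mean difference, at 2.93 and 3.36 in U2-OS with and without OGE against 3.75 and 4.06 in HOS. Its differences of -0.82 and -0.70 did not reach the size threshold, and limma gave an adjusted p of 0.105. XAGE2 was below the median on all arrays.

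BAGE5 and BAGE2, copies of a family that arose near centromeres, were higher in U2-OS. BAGE5 had 6.40 and 6.81 in U2-OS with and without OGE, against 4.11 and 4.06 in HOS, a mean difference of 2.52 at an adjusted p of 0.0303 in limma. BAGE2, annotated as a transcribed pseudogene, had 5.72 and 6.44 in U2-OS, against 3.94 and 3.78 in HOS, a mean difference of 2.22 at an adjusted p of 0.0434 in limma. Over the limma alternatives the adjusted p of BAGE2 ran from 0.00181 to 0.0554, the last without the OGE term, which ended its call. The array holds a further probe set that the annotation gives to both genes, so they are not separate evidence. That probe set was higher in U2-OS by 2.84 without OGE, but by 0.64 with OGE, where it was not called. Without them, 6 members were higher by size in both states and 5 by limma, an alternative chosen after seeing the data.

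**Figure D2:**
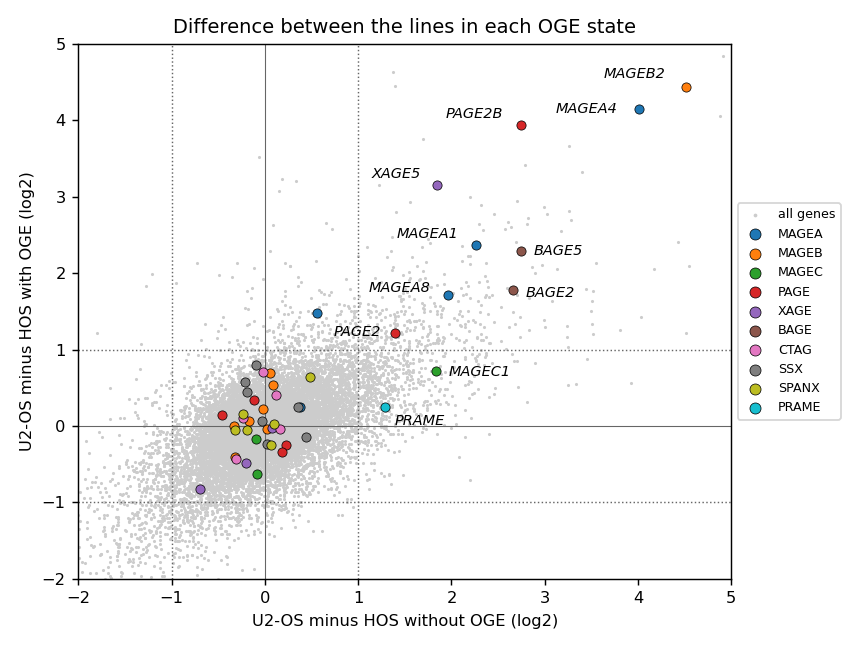
U2-OS minus HOS (log2) with OGE on the vertical axis and without OGE on the horizontal axis, with members coloured by family and all genes in grey; dotted lines mark a log2 difference of 1, and some grey points lie outside the axes. The 8 members called in both states lie in the upper right, from MAGEA8 at 1.71 and 1.96 to MAGEB2 at 4.44 and 4.52, and no member lies beyond -1.

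PRAME and CTAG2 were well above the array median in both lines. PRAME, which binds retinoic acid receptors and serves as a substrate receptor of a cullin ubiquitin ligase, had levels of 9.28 with OGE and 10.24 without it in U2-OS, against 9.03 and 8.95 in HOS. Without OGE the lines differed by 1.29, and with OGE by 0.25, so the call by size did not hold in both states. Limma gave an adjusted p of 0.249. CTAG2, a close relative of the antigen gene CTAG1B, lay between 6.97 and 7.23 on the 4 arrays and differed between the lines by -0.04 with OGE and 0.16 without it. Limma gave an adjusted p of 0.903 for CTAG2, which does not show that the lines are alike.

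No SSX or SPANX gene was called in any comparison. SSX genes encode transcriptional repressors and are fused to another gene in synovial sarcoma, and SPANX genes encode proteins of the sperm nucleus. SSX1, SSX3, SSX5, SSX6P and SSX7 were below the median on all arrays, between 1.04 and 2.94, and the pseudogene SSX8P was above it on all arrays, between 4.24 and 4.36. SPANXB1, SPANXN1, SPANXN3, SPANXN4 and SPANXN5 were below the median, between 1.2 and 3.42. The transcript SPANXA2-OT1 had 9.82 and 9.86 in U2-OS with and without OGE, against 9.87 and 10.18 in HOS. Its difference between the lines with OGE was -0.05 as deposited and 0.20 after quantile normalization, and its mean difference was -0.18 and 0.03, so no direction is given.

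Counted over all members, 30 of 47 were below the median on all 4 arrays, at levels from 1.02 to 3.50, and their differences between the lines ran from -0.63 to 1.22 with OGE and from -0.46 to 1.40 without it. The number of members at or above the array median was 15 with OGE and 15 without it in U2-OS, against 12 and 13 in HOS. Shares of all genes on either side of the median were not counted, so these counts are not read as a trait of the members. All 5 members taken by spelling only were below the median, and leaving them out left 42 members with the same calls.

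Of 655 X-linked genes outside the families, 12 (1.83%) were higher and 14 (2.14%) lower in U2-OS by size in both states, near the 1.8% and 1.91% over all genes. Limma called 8 (1.22%) higher and 9 (1.37%) lower, beside 0.885% and 1.04% over all genes. Their median difference was 0.00 with OGE and -0.02 without it.

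With OGE, 1 member was called by size in each line, and none by limma. PAGE2B was the only 1 of 47 members lower with OGE in HOS, where 1.34% of all genes were called lower, and no member was higher, against 1.05% of all genes. XAGE5 was the only member higher with OGE in U2-OS, where 1.84% of all genes were called higher, and no member was lower, against 4.92% of all genes. Each of these shares, 2.13% of the members, rests on 1 gene. Over both lines limma called 0 members and 0% of all genes. At an unadjusted p under 0.05 it had 2 of the 47 members and 2615 of all 18417 genes. Its smallest adjusted p was 0.288 among the members and 0.228 over all genes. The median change of the members was 0.02 in U2-OS and 0.03 in HOS, beside 0.03 and 0.02 over all genes.

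For PAGE2B the log2 change with OGE was -0.49 in U2-OS and -1.68 in HOS. In HOS it was below the array median with OGE and above it without OGE. XAGE5 changed by 1.08 in U2-OS and by -0.23 in HOS, which was below the median without OGE as well. PRAME had a change of -0.96 in U2-OS, just short of the threshold, and of 0.08 in HOS. BAGE2 had changes of -0.72 and 0.16, MAGEC1 of -0.67 and 0.44, and MAGEA11 of 0.58 and -0.34, each in U2-OS and HOS in that order. With 1 array per group, whether the changes of the lines differ could not be tested.

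The 4 MAGE genes that were higher in U2-OS were not called with OGE in either line. MAGEB2 changed by -0.39 in U2-OS and -0.31 in HOS, MAGEA4 by 0.18 and 0.04, MAGEA8 by -0.34 and -0.09, and MAGEA1 by -0.43 and -0.54. MAGEA1 was 1 of the 2 members with an unadjusted p under 0.05 for OGE in limma, and its adjusted p was 0.333. The other was PAGE2B, with an adjusted p of 0.288.

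**Figure D3:**
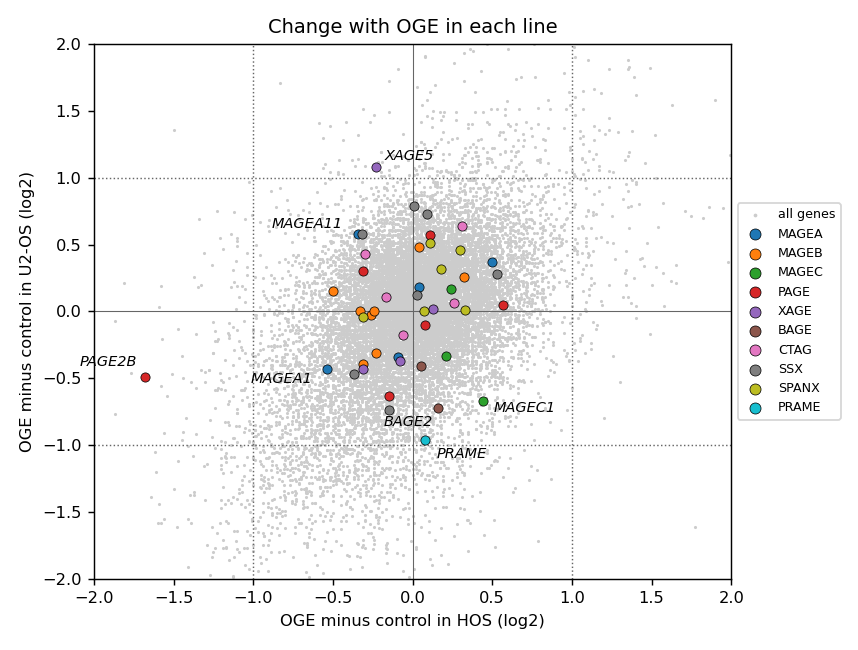
Log2 change with OGE in U2-OS on the vertical axis and in HOS on the horizontal axis, with members coloured by family and all genes in grey; dotted lines mark a change of 1, and some grey points lie outside the axes. PAGE2B at -1.68 in HOS and XAGE5 at 1.08 in U2-OS are the only members past a dotted line.

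What the members share in their promoters was described over the 32 that matched a window in the RefSeq table, using for each the window with the most CG pairs, or of tied windows the one with the lowest start. These windows held a median of 10 CG pairs, against 16 over the 27305 genes with a window. Of the members called higher in U2-OS by size or limma, 5 had a window, namely MAGEB2, MAGEA4, MAGEA8, PAGE2B and XAGE5, with 8 to 21 CG pairs and a median of 12. The other 27 held 1 to 32, with a median of 10. The 32 were in SSX2IP, taken by spelling only, and MAGEA11, not called in both states, held 21. MAGEA1, BAGE2 and BAGE5 matched no window.

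The motif CGGAA, the core of a site bound by ETS transcription factors, was searched on both strands. ETS sites are known in promoters of the MAGEA family. The motif was present in the windows of all 5 members called higher in U2-OS and in 9 of the other 27, together 43.8% of the 32, against 36.2% of all genes with a window. It contains a CG pair, so its count depends on the CG pairs of a window. The members' windows held fewer of these, a median of 10 against 16 over all genes with a window. The part of CG content in the motif counts was not tested. The window of MAGEB2 held 2 copies, those of PAGE2B and PAGE2 held 1 each, and that of MAGEB3 none. For MAGEA4 the printed window held 3 copies, the other window with 15 CG pairs held 4, and the remaining 3 windows held 3, 1 and 0. Since the higher members were chosen by their values, these counts describe the windows and were not tested, and a match is not a bound site.

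**Figure D4:**
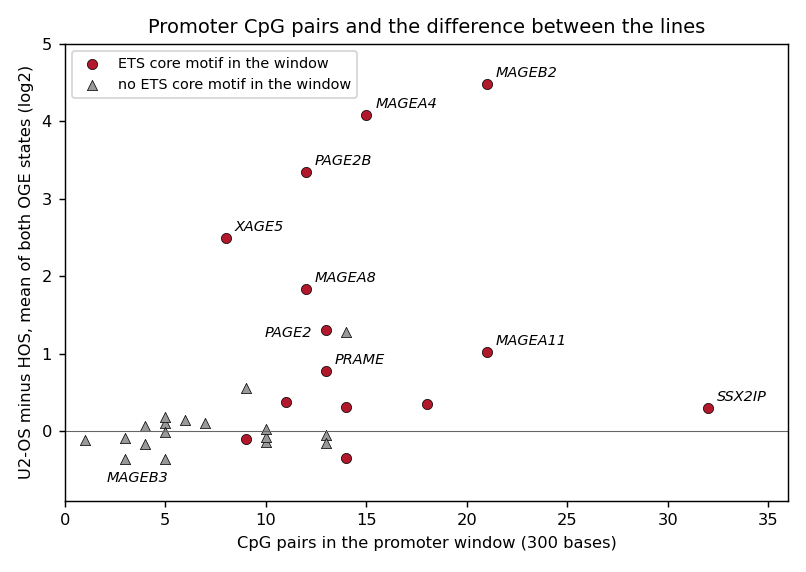
Mean U2-OS minus HOS difference (log2) on the vertical axis against the number of CpG pairs in the 300-base promoter window on the horizontal axis, for the 32 members with a window; red circles hold the ETS core motif and grey triangles do not. MAGEB2 and MAGEA11, with 21 pairs each, lie at 4.48 and 1.02, and MAGEB3, with 3 pairs, lies at -0.36. SSX2IP, taken by spelling only, has the most pairs, 32, and lies at 0.30.

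Cancer-testis genes of other families were counted the same way. Of 42 measured genes of that list, 5 were at or above an array median and none was called between the lines by size in both states or by limma. CTCFL, a testis paralogue of the insulator protein CTCF, had 5.33 and 6.27 in U2-OS with and without OGE, against 5.63 and 6.17 in HOS. TSSK6, a testis serine kinase, had levels of 3.23 and 2.72 in U2-OS with and without OGE, against 4.42 and 2.95 in HOS. It was the only gene of the list called with OGE, by a change of 1.47 in HOS, where 1.05% of all genes were called higher. The list's median difference was 0.015 with OGE and 0.005 without it (U2-OS minus HOS).

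Of 9 measured MAGE genes that are expressed in many tissues, 3 were higher in U2-OS by size in both states and none lower. Over all genes, 1.8% were called higher and 1.91% lower this way. Limma called 1 of the 9, MAGED2, which has a role in salt transport in the kidney, against 0.885% of all genes called higher. MAGED2 had 7.41 and 8.15 in U2-OS with and without OGE, against 6.0 and 6.12 in HOS, a mean difference of 1.72 at an adjusted p of 0.0486 in limma. The others by size were NDN, an imprinted growth suppressor, with differences of 1.32 and 1.10 with and without OGE, and MAGEH1 with 1.02 and 1.10. MAGED1 differed by 0.69 and 1.32, and its change with OGE was -1.28 in U2-OS and -0.65 in HOS. The list's median difference was 0.69 with OGE and 0.89 without it.

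Ligases and other partners of MAGE and PRAME proteins were measured for 19 genes, and none was called between the lines by size in both states, by limma, or with OGE. The ligase TRIM37 differed by 0.76 with OGE and 1.26 without it, and the polycomb methyltransferase EZH2 by -1.24 and -0.30. Of 34 measured genes that control DNA methylation and linked chromatin marks, limma called none between the lines. By size in both states 1, the histone methyltransferase SETDB1, was lower in U2-OS. Over all genes 1.91% were called lower this way, so 1 gene is not read as a result of the list. SETDB1 had 5.28 and 5.27 in U2-OS with and without OGE, against 6.98 and 6.43 in HOS, at an adjusted p of 0.0569 in limma. Over all genes, 4.92% were called lower with OGE in U2-OS and 1.34% in HOS. The deacetylase gene HDAC2 was lower with OGE by size in both lines, with changes of -1.43 in U2-OS and -1.14 in HOS. The other calls with OGE were TDG, a DNA glycosylase, at -1.15 in HOS, and SUZ12, a polycomb subunit, at -1.10 in U2-OS. SUZ12 was named because it was called. The part of any of these genes in the members' levels was not tested.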

How the data were processed

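Gene expression in HOS and U2-OS cells was measured on 4 single-colour arrays from total RNA, with biotin labelling by a whole-transcript sense-strand method, per the labels' protocols. The deposited values are log2 levels. The submitters' processing notes name RMA without a version. The log base was inferred, since the values run from 0.16 to 13.41. RMA pulls low signals together, so differences of low genes are understated. The array annotation, of 2016, gave 1 symbol for 19460 of 33297 probe sets, several for 1754 and none for 12083. Symbols were updated by gene ID through RefSeq, which matched 19429 probe sets, and 18417 genes remained. Where a gene had several probe sets, the one with the highest mean was used, which touched 3 members. No genome build is given in the sources used here for the probe sets.

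Differences were called by size (at least 1 on the log2 scale, the higher array at or above its median over all probe sets), with no p-value. The limma test (3.58.1, R 4.3.3) used cell line and OGE as terms over all genes, with 1 residual degree of freedom, 3.55 prior degrees of freedom and Benjamini-Hochberg adjustment at 0.05. Its p-values measure the spread between these arrays only. The residual is the difference between the lines in their change with OGE, so such a difference counts as error. Through the prior, much of each standard error comes from the spread over all genes. Members and lists were chosen with earlier results of these data known. Named with values are members at or above an array median on at least 1 array or called in a comparison, and the highest member of each family. Each other list was ranked for the 4 genes with the largest difference between the lines and the 4 with the largest change with OGE. Only some of these are named, and some named genes, SUZ12 among them, are outside them. Other members are given by counts and ranges, and PAGE2 and MAGEB3 were added with their values known. Promoter windows were aligned with Biopython 1.88, with free end gaps. Alternatives were other size thresholds and floors, averaging a gene's probe sets, cyclic loess, quantile normalization, other member lists and other limma settings. Probe sets with several symbols entered no comparison.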

Additional observations from a re-analysis of the deposited data

Results flagged for a closer look

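The change with OGE had opposite signs in the lines for 13 of the 47 members, of which 6 were at or above an array median on at least 1 array. The share of all genes with opposite signs was not counted, so the 13 are not read as a trait of the members. For the other 7, below it on all arrays, the change in U2-OS less that in HOS ran from -0.54 to 0.90. Among the 6 it was 1.31 for XAGE5, 0.92 for MAGEA11, -0.46 for BAGE5, -0.88 for BAGE2, -1.04 for PRAME and -1.11 for MAGEC1. Each line has 1 array per state, so these differences were not tested, and of the 12 changes of these 6 members only that of XAGE5 in U2-OS was called by size.

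Among probe sets with several symbols, which entered no comparison, 1 that the annotation gives to a MAGEA gene and a gene of another family was higher with OGE in U2-OS by 1.24. Its levels were 5.10 with OGE and 3.86 without it in U2-OS, against 3.03 and 2.84 in HOS. The probe set that the annotation gives to both BAGE2 and BAGE5 was lower with OGE in U2-OS, by a change of -1.78, with 0.42 in HOS.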

How the results depend on the processing

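The count of 8 members higher in U2-OS by size in both states stayed between 6 and 9 under every alternative run, and MAGEB2, MAGEA4, MAGEA1, MAGEA8 and BAGE5 were called by limma in all 6 refits. The limma count of 7 became 12 after quantile normalization and 5 without the OGE term, and the cause was not tested. Shares over all genes were not counted under the alternatives, so no count under them is read as a gain for the members. Counts of members called lower or with OGE were 0 or 1 and moved with the threshold by construction. At 1.5-fold, 1 member, XAGE-4, was lower in U2-OS in both states, and 3, BAGE2, MAGEC1 and PRAME, were lower with OGE in U2-OS. The call of XAGE5 with OGE in U2-OS fell to 0 at 3-fold and with the floor at the 75th percentile, which also left 0 members lower with OGE in HOS. For the 17 members named by level, 255 differences were recomputed after averaging probe sets, cyclic loess or quantile normalization. Of these, 6 gained a limma call, for MAGEA11, MAGEC1, PRAME or XAGE5, and none lost one. The sign changed in 13, of CTAG2, MAGEA4, PAGE5, SPANXA2-OT1 and SSX8P, whose sizes as deposited were at most 0.185. PAGE2, not among the 17, also gained a limma call after averaging probe sets, cyclic loess or quantile normalization. The OGE term already compares the lines within each OGE state. Beyond it, no paired analysis was possible because each group has 1 array and the labels carry no replicate numbers. Leaving out an array leaves limma no residual degree of freedom.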

Other observations

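The families also had 30 probe sets with several symbols, with 23 distinct rows of values, which name no single gene. The probe sets that the annotation gives to a pair of XAGE genes, 5 with identical values, had 6.14 with OGE and 6.19 without it in U2-OS, against 4.56 and 3.85 in HOS. Of the GAGE probe sets, 1 shared by 10 genes had 3.51 and 2.96 in U2-OS with and without OGE, against 1.54 and 1.19 in HOS. All of these levels were below the array medians, so it was not called by size. The other, shared by 12 genes, had 6.66 and 7.05, against 6.54 and 6.43, and was not called either. By size, 3 distinct rows were higher in U2-OS in both states and none was lower by size in both states. The share of all probe sets with several symbols called this way was not counted, so the 3 are not read as a result of the families. The probe set shared by both BAGE copies had 2.21 with OGE and 3.99 without it in U2-OS, against 1.57 and 1.15 in HOS.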
